A study of Mus musculus with 8 samples.

Results

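The enzymes that build heme and the enzymes that open its ring were followed in the brains of mice given methanol and of mice given saline. They comprised 9 genes, Alas1, Alas2, Alad, Urod, Cpox, Ppox, Fech, Hmox1 and Hmox2, and every array probe whose platform annotation carried one of these symbols was taken, which gave 14 probes among the 25697 on the Illumina MouseRef-8 BeadChip. A probe was tested where its detection p-value was under 0.05 on at least 4 of the 8 arrays. This left 8 probes for 7 of the 9 genes, beside 11938 probes for 8528 genes in the whole data set of 16593 genes. Each group held 4 arrays of whole brain RNA. The labels give methanol at 120 mg/kg in 350 µl for the methanol mice and 350 µl of normal saline for the saline mice, with a time of 2 h. They state neither the route nor whether each array held the RNA of 1 mouse. The methods instead describe inhalation of methanol vapor, with water vapor as the control, by BALB/c mice, an inbred strain. No age was given in the labels.

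Heme is an iron-bearing ring made in steps that begin and end in mitochondria and pass through the cytosol between. The first step, catalysed by 5-aminolevulinate synthase, exists in a housekeeping form, Alas1, used by most tissues, and an erythroid form, Alas2, used by developing red cells to supply hemoglobin. Heme oxygenases, the inducible Hmox1 and the constitutive Hmox2 of brain and testis, open the ring to release biliverdin, carbon monoxide and iron.

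The labelled tissue was checked against cell type markers. Of 5 neuron markers listed 3 were tested, while Snap25 did not pass the detection filter and Tubb3 was detected on no array. The 3 tested neuron markers, 4 astrocyte markers and 3 oligodendrocyte markers were detected on every array and none of them was called. Of 2 liver genes, Alb was detected on no array, while Apoa1 was detected on 2 methanol and 2 saline arrays and was not called. Of 3 tested microglia markers 1 was called lower, P2ry12, by 0.35 on the log2 scale (adjusted p = 0.036 from limma). Choroid plexus markers varied widely, with a log2 intensity of Ttr, a carrier protein made there, from 8.40 to 9.67 in methanol brains and from 7.53 to 14.40 in saline brains, and Kl was called lower (adjusted p = 0.042). Xist, which is expressed from the inactive X chromosome of females, was detected on all 8 arrays by both of its probes, although every sample is labelled male. Methanol arrays detected 11291 to 12366 probes each, and saline arrays 11855 to 12199.

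The promoters of the synthase pair are shown because these 2 genes catalyse the same reaction and their probes gave different results. They are the 250 bases before the annotated gene start, 5′ to 3′ on the coding strand, from RefSeq (GRCm38.p6), at chrX:150547167-150547416 on the plus strand for Alas2 and chr9:106247955-106248204 on the minus strand for Alas1. Capitals mark matches on either strand to any of 5 motifs: a GATA1-type site (GATA after A or T and before A or G), the CACCC box (CACCC), an NRF1-type site, an antioxidant response element (TGACNNNGC) and a TATA box (TATAAA).
Alas2: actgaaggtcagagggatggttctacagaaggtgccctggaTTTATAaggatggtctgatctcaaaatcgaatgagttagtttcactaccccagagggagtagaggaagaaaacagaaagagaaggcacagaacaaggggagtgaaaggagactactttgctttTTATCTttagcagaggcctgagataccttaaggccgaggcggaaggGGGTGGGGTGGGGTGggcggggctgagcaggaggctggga
Alas1: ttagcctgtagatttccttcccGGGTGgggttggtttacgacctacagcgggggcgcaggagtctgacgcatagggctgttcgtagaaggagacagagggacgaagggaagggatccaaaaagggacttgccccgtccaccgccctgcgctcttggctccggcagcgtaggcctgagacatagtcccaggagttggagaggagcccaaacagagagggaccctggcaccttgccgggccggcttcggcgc
The Alas2 window held 1 GATA1-type match, 3 adjoining CACCC boxes and 1 TATA match, all read on the minus strand. The TATA match lay at -209 to -204 from the gene start, and none was found on the coding strand. The Alas1 window held 1 CACCC box and no match to the other motifs. A second annotated start of Alas1 had a CACCC box and NRF1-type matches at 2 positions in its window. Of 27025 promoters of this length, 27.1% held a GATA1-type site, 51.3% a CACCC box, 3.86% an NRF1-type site, 10.1% an antioxidant response element and 13% a TATA match. Over the 11 windows of the 7 enzymes with a promoter entry, GATA1-type matches were found for 3 genes (Alas2, Cpox and Hmox2), CACCC boxes for 4 (Alas1, Alas2, Alad and Cpox), an antioxidant response element for 0, and NRF1-type and TATA matches for 1 gene each. These enzyme counts take a match in any window of a gene. The shares over the 27025 promoters took 1 window per gene, so they are not on the same basis. Hmox1 and Fech had no entry.

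Of the 8 tested enzyme probes 1 was called lower in methanol brains, that of Alas2, and 0 were called higher, at a Benjamini-Hochberg adjusted p under 0.05 from limma. Over all tested probes 5.60% were called, 3.12% higher and 2.49% lower. The median log2 change (methanol minus saline) was 0.0068 over the 8 enzyme probes and -0.0021 over all tested probes. The remaining 7 enzyme probes did not pass the test, and the methanol and saline values did not overlap for 1 of the 8, again Alas2 in the lower direction. Such separation was seen for 12.4% of all tested probes, 6.60% with methanol higher and 5.77% with methanol lower. An unadjusted p under 0.05 was found for 2 of the 8 enzyme probes, Alas2 and Hmox2, and for 20.7% of all tested probes.

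**Figure D1:**
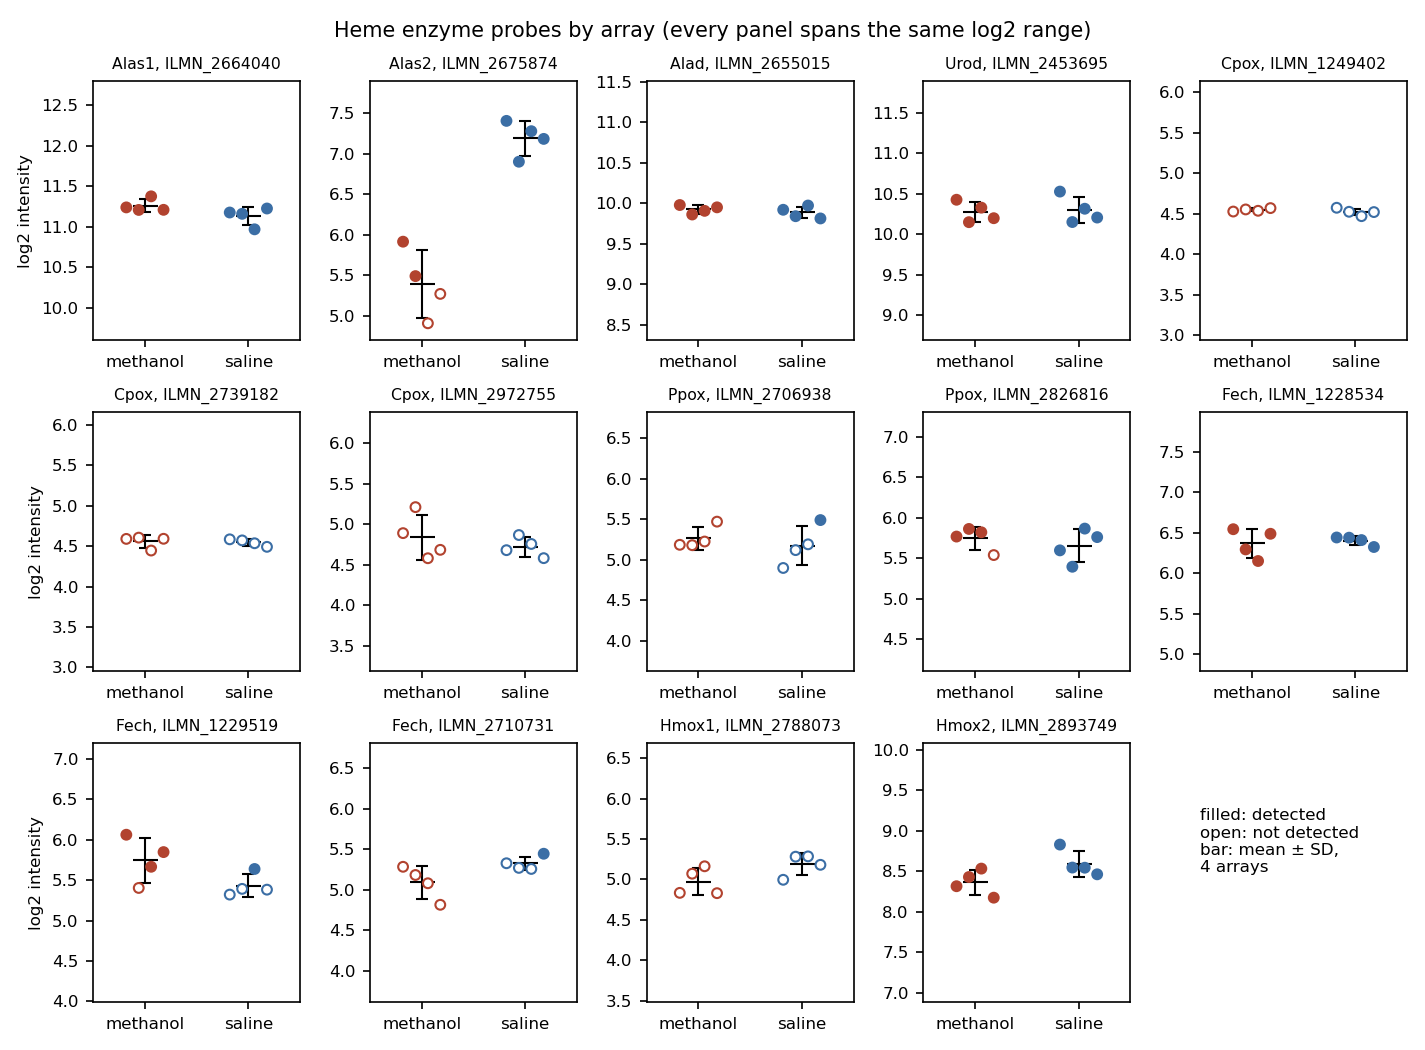
Log2 intensity (y axis) of each of the 14 heme enzyme probes on the methanol arrays (left) and the saline arrays (right), 1 point per array, filled where the probe was detected, with the mean and SD over 4 arrays. The groups are apart for Alas2, with 4.90 to 5.91 in methanol brains and 6.90 to 7.41 in saline brains, and overlap for the other 13 probes.

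Alas2, the erythroid synthase, had deposited un-normalized intensities of 216.6, 201.1, 166.7 and 178.5 in methanol brains, against 305.0, 280.3, 303.2 and 293.5 in saline brains. After background correction and normalization its log2 intensity was 5.91, 5.49, 4.90 and 5.27 in methanol brains, against 7.41, 6.90, 7.28 and 7.18 in saline brains. Every methanol value lay below every saline value on both scales. The probe was detected on 2 of 4 methanol arrays (replicates 1 and 2) and on 4 of 4 saline arrays, so that on methanol replicates 3 and 4 it was not separable from background. Alas2 fell by 1.80 on the log2 scale (SE 0.19, 95% interval -2.21 to -1.39, adjusted p = 4.5e-05), which is 3.48-fold lower than in saline brains. An exact two-sided permutation test of the 8 arrays gave p = 0.0286, the smallest value that 4 against 4 arrays allow. In RNA of a whole tissue, fewer cells of a type and less RNA per cell cannot be told apart. The size depended on the background: with undetected signals set to the lowest detected signal the change was -1.59, without background correction it was -0.66, and the probe was not tested where detection on all 8 arrays was required.

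**Figure D2:**
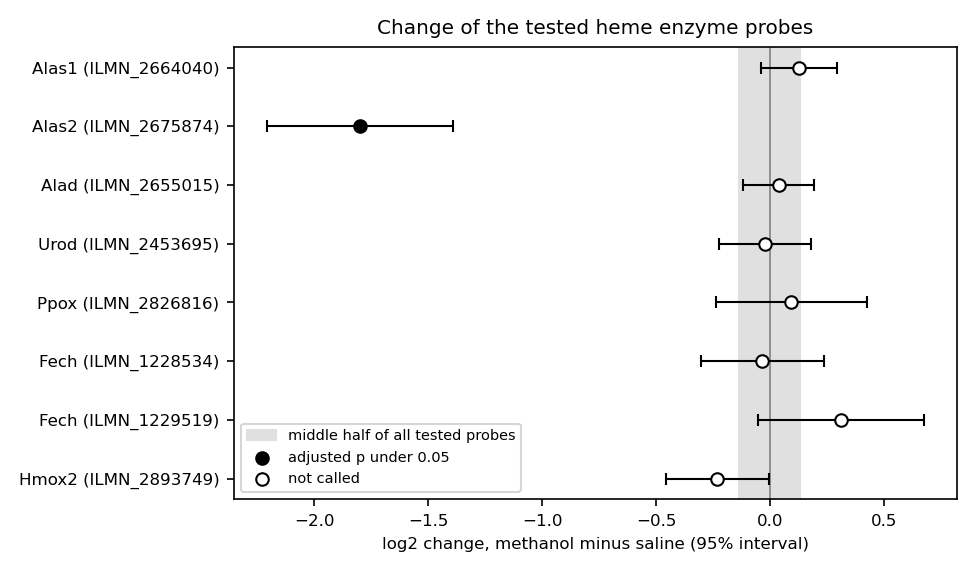
Log2 change, methanol minus saline (x axis), of the 8 tested heme enzyme probes with its 95% interval, filled where called. The shaded band runs between the quartiles of all tested probes, -0.14 and 0.13, and Alas2 at -1.80 is the one probe whose whole interval lies outside it.

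Alas1, the housekeeping synthase, was detected on every array and did not pass the test. Its log2 intensity was 11.24, 11.21, 11.37 and 11.21 in methanol brains, against 11.18, 11.16, 10.97 and 11.22 in saline brains. The ranges overlapped, and the change was 0.13 (95% interval -0.04 to 0.29, adjusted p = 0.39). The change of Alas2 minus that of Alas1 was -1.92, with an exact two-sided permutation p of 0.0286 over the arrays. That p was fixed by Alas2 alone. The Alas2 groups lay further apart (5.91 to 6.90) than the whole range of Alas1 (10.97 to 11.37). The p therefore repeats the Alas2 result and is no separate test of the 2 forms. The difference of -1.92 compares changes, not the levels of the 2 probes.

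The enzymes of the following steps gave small changes where they were measured. Alad, which joins 2 aminolevulinate molecules into porphobilinogen, had log2 intensities of 9.86 to 9.98 in methanol brains and 9.81 to 9.97 in saline brains, with a change of 0.04 (95% interval -0.12 to 0.19, adjusted p = 0.83). Urod, which decarboxylates uroporphyrinogen in the cytosol, ranged from 10.15 to 10.43 in methanol brains and from 10.15 to 10.53 in saline brains. Its change was -0.02 (95% interval -0.23 to 0.18, adjusted p = 0.92). Neither enzyme differed beyond the spread of its arrays.

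The mitochondrial end of the pathway was dim on these arrays. Cpox, which makes protoporphyrinogen, had 3 probes and none was detected on any array, so that no level is given for it. Ppox, which oxidises that product, had 1 tested probe (ILMN_2826816) with a change of 0.09 (95% interval -0.24 to 0.43, adjusted p = 0.79) and another (ILMN_2706938) detected on 0 methanol arrays and 1 saline array.

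Fech, the ferrochelatase that inserts iron, had 3 probes and none was called. Its brightest probe (ILMN_1228534) had log2 intensities of 6.54, 6.29, 6.15 and 6.49 in methanol brains, against 6.44, 6.44, 6.41 and 6.32 in saline brains, a change of -0.03 (95% interval -0.31 to 0.24, adjusted p = 0.92). The next probe (ILMN_1229519) had 6.06, 5.40, 5.66 and 5.85 in methanol brains, against 5.32, 5.39, 5.64 and 5.38 in saline brains. It was detected on 3 methanol arrays and 1 saline array, with a change of 0.31 that did not pass (95% interval -0.05 to 0.67, adjusted p = 0.33). The last probe (ILMN_2710731) was detected on 0 methanol arrays and 1 saline array.

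Of the heme oxygenases, Hmox1, the inducible form, was detected on 0 of the 8 arrays, with un-normalized intensities of 160.6 to 184.1 in methanol brains and 163.5 to 194.9 in saline brains. A level under detection does not show that its RNA is absent. Hmox2, the constitutive form, was detected on every array, with log2 intensities of 8.32, 8.43, 8.53 and 8.17 in methanol brains, against 8.83, 8.55, 8.54 and 8.46 in saline brains. Methanol replicate 3 lay above saline replicate 4, so the groups overlapped. The change was -0.23 (SE 0.11, 95% interval -0.46 to -0.01), with an unadjusted p of 0.044 and an adjusted p of 0.23 from limma.

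The genes whose arrays followed Alas2 most closely were mainly hemoglobins. Each profile was taken as log2 intensity minus its own saline mean, and likeness as the root mean square distance over the 8 arrays, which is a description. The nearest were Hbb-b2 and Hba-a1, chains of adult hemoglobin (distance 0.29 each), Hbb-bt, another beta chain (0.34), Prdx2, a peroxidase abundant in red cells (0.46), and Rsph1, a protein of the radial spokes of cilia (0.46). Hba-a1 had log2 intensities of 12.32, 12.33, 12.29 and 12.61 in methanol brains, against 14.40, 14.02, 14.30 and 13.99 in saline brains. Hbb-b2 had 7.24, 7.34, 7.19 and 6.84 in methanol brains, against 9.34, 8.91, 9.25 and 9.16 in saline brains. The log2 change was -1.79 for Hba-a1, -2.01 for Hbb-b2, -1.47 for Hbb-bt, -2.25 for Prdx2 and -1.29 for Rsph1. Since likeness to Alas2 over the same arrays chose these 5 genes, their lower values in methanol brains follow from the choice.

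**Figure D3:**
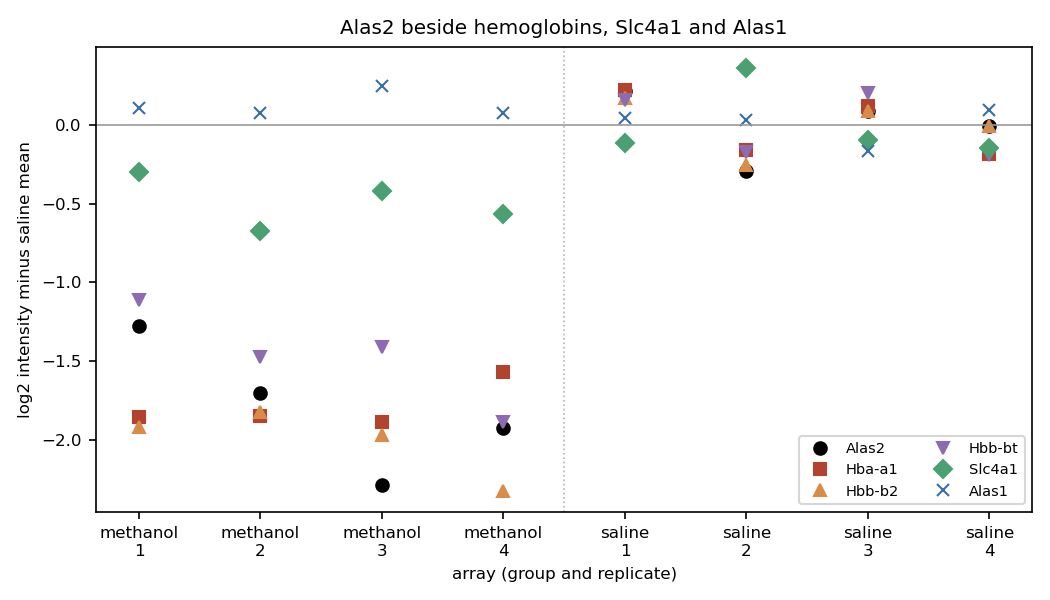
Log2 intensity minus the saline mean of each gene (y axis) on the 4 methanol arrays (left) and the 4 saline arrays (right) for Alas2, 3 hemoglobin chains, Slc4a1 and Alas1. Alas2 and the hemoglobin chains lie below their saline values on every methanol array, while Alas1, with a change of 0.13, does not.

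The hemoglobins were lower in methanol brains, while few other red cell genes could be measured. Of 10 hemoglobin genes listed, 3 were tested and 3 were lower (adjusted p = 5.7e-08 for Hba-a1, 1.2e-07 for Hbb-b2 and 7.4e-05 for Hbb-bt), 4 were detected on no array and 3 were not analysed here. The authors list the transcript of the Hbb-bt probe as Hbb-b1, a name counted here among the 3 not analysed. These 2 names are thus not separate genes in this count. Probes of such near-identical genes may also capture their copies. The summed intensity of this list was 5218 to 6392 in methanol brains and 17026 to 22395 in saline brains. Of 23 other red cell genes, a list that held neither Alas2 nor Prdx2, 8 were tested and 0 were called, against 5.60% of all tested probes. Their median log2 change was 0.05, with a summed intensity of 4261 to 4839 in methanol brains and 4244 to 4876 in saline brains. Slc4a1, an anion exchanger that erythrocytes carry in abundance, had a detectable signal on 0 of 4 methanol arrays and 4 of 4 saline arrays. It thus passed the filter through the saline arrays alone, and it was not called (adjusted p = 0.12 from limma). The bound from the lowest detected signal was 1.10-fold lower in methanol brains. It leans on saline replicate 2, at 5.96 against 5.45 to 5.50 on the other saline arrays. With undetected signals set to the lowest detected signal, which raises every methanol value, the change was -0.14 (adjusted p = 0.60 from limma). Slc4a1 was called in neither setting, so a decrease was not shown. The other 7 tested genes, Sptb, Ank1, Epor, Car2, Mkrn1, Bnip3l and Xpo7, had changes of -0.16 to 0.36. Sptb and Bnip3l were the brightest of them, at mean log2 intensities of 10.80 and 10.75 in methanol brains, and weigh most in the summed intensity. Whether red cells or brain cells gave the signal of these 7 genes was not tested. Epb42, Rhag, Rhd, Kel, Klf1, Nfe2 and Tal1 were detected on no array. The part of red cells in the Alas2 result was not tested.

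Genes around the pathway were counted from lists, by the brightest probe of each gene. Over all tested probes 5.60% were called, so 1 call among 7 to 9 tested genes is not read as a result about a list. Of 8 tested genes for other synthesis steps and for carriers of heme precursors, 0 were called (median log2 change 0.0097), the largest change being that of Abcb10, a transporter of the inner mitochondrial membrane. Abcb10 had log2 intensities of 6.40 to 6.75 in methanol brains and 6.07 to 6.32 in saline brains, with a change of 0.36 that did not pass (adjusted p = 0.11). Of 8 tested genes of heme breakdown, binding and transport, 0 were higher, 1 was lower and 7 were not called (median -0.04). Biliverdin reductase, which turns the product of the heme oxygenases into bilirubin, had changes of -0.03 for Blvra and 0.05 for Blvrb, neither called.

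The gene called lower in that list was Slc46a1, a carrier of folate that also takes up heme. It had log2 intensities of 5.74, 5.01, 5.35 and 5.44 in methanol brains, against 6.24, 6.14, 6.59 and 6.53 in saline brains, and was detected on 1 methanol array and 4 saline arrays. The groups were apart, and Slc46a1 fell by 0.99 (SE 0.17, adjusted p = 0.0036). The mean of the methanol arrays, 5.38, lay under the lowest detected signal, which averaged 5.46 on them, so the size of this change is uncertain. With undetected signals set to the lowest detected signal the change was -0.82, and without background correction it was -0.31. The choroid plexus markers Ttr, Kl and Clic6 had log2 changes of -2.03, -1.17 and -1.03, and Kl was called. Ttr and Clic6 overlapped between the groups and were not called (adjusted p = 0.24 and 0.30 from limma). The part of choroid plexus in this result was not tested.

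Among 7 tested genes of heme sensing 1 was higher and 0 were lower (median 0.05), against 3.12% higher and 2.49% lower over all tested probes. It was Bach1, a heme-binding repressor of Hmox1, with log2 intensities of 6.73, 6.49, 6.47 and 6.09 in methanol brains, against 5.24, 5.89, 5.71 and 5.36 in saline brains. All methanol values were above all saline values, and the probe was detected on 4 methanol arrays and 2 saline arrays. Bach1 rose by 0.89 (SE 0.18, adjusted p = 0.0086). Its saline values lay near the lowest detected signal, so the size of this change is uncertain. With undetected signals set to the lowest detected signal the change was 0.83, and without background correction it was 0.28. Keap1, Mafg, Nr1d1, Nr1d2, Eif2ak1 and Ppargc1a were not called.

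Of 9 tested iron genes 1 was higher and 0 were lower (median 0.08), against 3.12% and 2.49% of all tested probes. Heph, a membrane ferroxidase, had log2 intensities of 6.45, 6.59, 6.61 and 6.47 in methanol brains, against 5.87, 5.85, 6.18 and 5.96 in saline brains, and rose by 0.57 (SE 0.13, adjusted p = 0.019). Without background correction the change of Heph was 0.19. A second tested Heph probe gave 0.35 and did not pass (adjusted p = 0.35), and the call was lost with median scaling (adjusted p = 0.070) and without methanol replicate 3 or saline replicate 2 or 4 (0.050 to 0.055, none under 0.05). Fth1, the ferritin heavy chain, held the highest rank on every array, so that quantile normalization fixed its value and no change could be read. Tfrc, the transferrin receptor, had a change of -0.07 and Slc40a1, the iron exporter, one of 0.12, neither called.

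Of 8 tested Nrf2 targets, a group to which Hmox1 belongs, 1 was higher and 0 were lower (median -0.10), against 3.12% and 2.49% of all tested probes. Srxn1, which repairs oxidised peroxiredoxins, had log2 intensities of 9.40, 9.67, 9.40 and 9.08 in methanol brains, against 7.88, 7.73, 7.92 and 7.84 in saline brains. It rose by 1.55 (SE 0.11, adjusted p = 7.1e-07), and its second tested probe by 0.97 (adjusted p = 1.3e-05). The other 7 tested targets, Nqo1, Gclc, Gclm, Txnrd1, Slc7a11, Me1 and Prdx1, had changes of -0.37 to 0.25 and were not called.

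**Figure D4:**
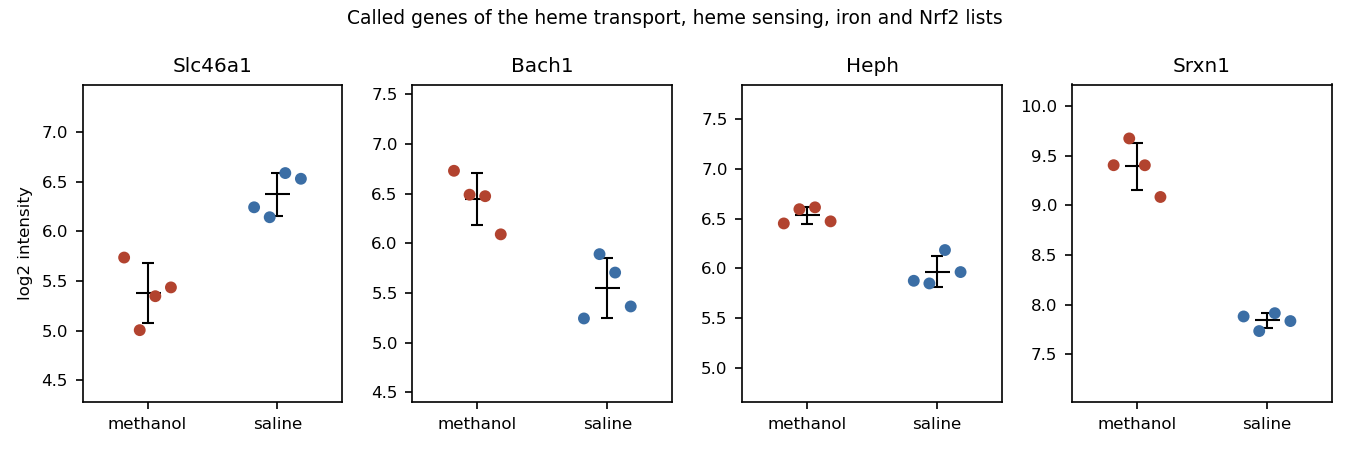
Log2 intensity (y axis) of Slc46a1, Bach1, Heph and Srxn1 on the methanol arrays (left) and the saline arrays (right), 1 point per array, with the mean and SD over 4 arrays. Slc46a1 was lower in methanol brains and the other 3 genes were higher, with no overlap of the groups in any panel. These genes are shown because they were called, and 12.4% of all tested probes had no overlap.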

How the data were processed

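Biotin-labelled RNA of mouse brain was hybridised to Illumina MouseRef-8 BeadChips, 4 arrays per group, and the authors processed the scans in GenomeStudio, naming cubic spline normalization. They deposited un-normalized intensity values, a second table of intensity values already normalized between arrays (it held the same sorted values in every column) and, per probe and array, the detection p-value. The un-normalized intensities were corrected for background by normexp, with the background inferred from those p-values (offset 16), quantile normalized and taken to log2 (the steps of neqc). Probes detected at p under 0.05 on at least 4 of 8 arrays were compared with limma 3.58.1 in R 4.3.3 (moderated test with a variance trend, two-sided), with Benjamini-Hochberg adjustment over all 11938. The methods name a different test (SAM), not used here. Single probes were also compared by exact permutation over the 70 splits. The fit was tested on simulated data, in which changes were placed only in probes detected on all 8 arrays. Dim probes such as that of Alas2 were therefore not covered. Since the labels do not give separate animals, p-values measure the spread between arrays, whose number limits the precision. A gene was represented by its brightest probe, except the enzymes, for which every probe is given. Outside the enzymes, named genes were those called in each list, or the largest change, and the 5 nearest to Alas2. For a probe undetected throughout a group, the fold is a bound set by the lowest detected signal. The members, lists and motifs were chosen with earlier results of these data known. Alternatives covered the table, background, scaling, filter, moderation, replicate number, fold limit and each array left out. The platform table named 23978 of 25697 probes.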

Additional observations from a re-analysis of the deposited data

Results flagged for a closer look

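In 4 of 56 groups of 4 arrays, 1 array lay far from the others by Dixon's ratio, where chance gives about 5%. Hba-a1 was 12.61 on methanol replicate 4, above 12.33, the next methanol value. Slc4a1 was 5.958 on saline replicate 2, with 5.501 the next saline value. The other flags fell on probes under detection on the array concerned. Cpox (ILMN_2739182) was 4.445 on methanol replicate 3, with 4.589 the next methanol value, and Ppox (ILMN_2706938) was 5.472 on methanol replicate 4, with 5.226 the next.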

How the results depend on the processing

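Alas2 stayed lower and past the threshold under every alternative in which it was tested, with log2 changes from -1.80 to -0.66 (highest adjusted p 0.00051) and from -1.94 to -1.65 on leaving out single arrays. With detection required on all 8 arrays Alas2 was not tested, so 0 enzyme probes and 4 genes of the other lists (7 in the main comparison) were called. Over all tested probes, 372 were higher and 297 lower. These counts were 161 and 168 with median scaling, and ranged from 204 to 466 higher and from 152 to 434 lower on leaving out single arrays, with the counts without methanol replicate 1 or saline replicate 2, 3 or 4 differing by over 1.5 times from those of all arrays. The titles number the replicates alike in both groups, but not every same-numbered pair deviated together: the correlations were 0.19, -0.11, -0.01 and 0.25 for replicates 1 to 4, and methanol replicates 1 and 4, not 2 and 3, correlated best with their own number. The numbers were not taken as pairs. With the replicate block the counts were 477 and 483, and the enzyme call was 1 as before. On leaving out single arrays, Urod ranged from -0.074 to 0.051, positive without methanol replicate 2 or 4 or saline replicate 1, and Fech (ILMN_1228534) from -0.092 to 0.038, positive without methanol replicate 3. Neither was called. Setting signals under detection to the lowest detected signal was an alternative chosen after seeing the data, and it changed no enzyme call. A dim probe such as that of Alas2 has a change whose size depends on the background correction.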
